A study of Mus musculus with 46 samples.

Results

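The genes described here are the 76 cytosolic ribosomal protein genes of a mouse T-cell RNA-seq table of 19521 genes. They were chosen by name: symbols of the form Rpl or Rps followed by a number and an optional a or x, together with Rplp0, Rplp1, Rplp2 and Rpsa. By that rule 46 code for proteins of the large ribosomal subunit and 30 for the small subunit. All 76 passed the filter on low counts in every comparison. The libraries came from C57BL/6 mice, either hCD2-LMO2 knock-in animals (TG), in which control elements of human CD2, a T-cell surface protein, drive the oncogene LMO2, or wild-type animals (WT). No source used here says whether the inserted LMO2 is of mouse or human sequence. No source used here states the age of the mice. Sorted thymocytes of both genotypes covered the CD4- CD8- double-negative cells as a whole (DN), their subsets DN1 and DN3, CD4+ CD8+ double-positive cells (DP) and the single-positive cells of either lineage (CD4SP and CD8SP). TG splenic CD4+ and CD8+ T cells (TG_S_CD4, TG_S_CD8) were set against TG thymic cells, since no WT splenic library was analysed here. Each group had 3 libraries, except WT DN1 with 1, which made 40 in all. Nothing in the labels says that replicates came from separate mice, so p-values measure only the spread between these libraries, which may be technical.

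The cytosolic ribosome translates every nuclear-encoded mRNA of the cell, and each of its subunits holds ribosomal RNA and 1 copy of nearly every protein of its set. The genes of these proteins are transcribed together, and their mRNAs begin with a cytosine followed by a run of pyrimidines, the 5′ terminal oligopyrimidine (TOP) tract, through which the mTOR kinase controls their translation. Thymocytes grow and divide after they pass selection for a rearranged T-cell receptor beta chain, and become small, resting DP cells before positive selection. Rpl22, a large-subunit protein, is known for the loss of alpha-beta T cells in mice that lack it. Rpl5 and Rpl11, which bind each other on the large subunit together with a small ribosomal RNA, restrain Mdm2, the inhibitor of p53, when ribosome assembly fails.

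Start regions of 8 members are printed to show the tract and the motifs searched for, and for their place in the results. The first 4 have a tract at the annotated start, Rps27 and Rps21 being the members that rose most in the spleen. Among the others, Rpl36a and Rps12 fell most in TG DN3, Rpl37 lies on chromosome 15, and Rpl12 rose most in WT CD4SP over WT DP. Each window runs from 60 bases before the start to base 20 of the transcript, 5′ to 3′ on the gene's strand, from RefSeq, build GRCm38.p6. Capitals mark the pyrimidine run that begins with a C at the start and the ETS core CCGGAAG.
Rpl15 (chr14:18270967-18271046, minus strand): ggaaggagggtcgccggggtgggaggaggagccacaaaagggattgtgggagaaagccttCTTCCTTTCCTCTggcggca
Rps18 (chr17:33955646-33955725, minus strand): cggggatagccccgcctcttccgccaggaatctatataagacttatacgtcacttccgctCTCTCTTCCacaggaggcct
Rps27 (chr3:90213629-90213708, minus strand): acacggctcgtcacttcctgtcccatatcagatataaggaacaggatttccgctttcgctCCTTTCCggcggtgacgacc
Rps21 (chr2:180257319-180257398, plus strand): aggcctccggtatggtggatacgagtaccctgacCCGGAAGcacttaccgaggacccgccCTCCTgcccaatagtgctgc
Rpl36a (chrX:134585594-134585673, plus strand): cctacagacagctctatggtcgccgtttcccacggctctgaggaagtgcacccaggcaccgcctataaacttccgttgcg
Rps12 (chr10:23787190-23787269, minus strand): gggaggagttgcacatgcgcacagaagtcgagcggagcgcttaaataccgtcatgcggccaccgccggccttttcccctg
Rpl37 (chr15:5116553-5116632, plus strand): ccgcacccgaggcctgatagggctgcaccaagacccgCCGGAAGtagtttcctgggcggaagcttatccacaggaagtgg
Rpl12 (chr2:32961652-32961731, plus strand): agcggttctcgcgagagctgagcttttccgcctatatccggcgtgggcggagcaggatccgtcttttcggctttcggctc

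The RefSeq promoter table held 56 of the 76 members. A C followed by at least 4 pyrimidines stood exactly at the annotated start in 13 of 56 members (23.2%), against 2.82% of 15297 genes of the table with a promoter. Within 5 bases of the start it was found in 48.2% of members and 22.4% of those genes. Over 250 bases before to 50 after the start, on both strands, CCGGAAG was present in 41.1% of members and 14.6% of genes, and AAGATGG, the core bound by YY1, in 16.1% of members and 7.32% of genes. Over the 11719 genes tested in at least 1 comparison, members left out, CCGGAAG was in 17.8% and AAGATGG in 7.92%. GGGCGG, the SP1 box, was found in 60.7% of members, 55.1% of genes and 64.1% of genes tested, so its order turned with the background. The same held for CACGTG, the E-box bound by MYC, found in 10.7% of members, 9.68% of genes and 10.9% of genes tested. The E-box CANNTG, which contains CACGTG, was found in 53.6% of members, 71.1% of genes and 69.0% of genes tested, and the GATA motif AGATAA in 7.14% of members, 10.2% of genes and 8.65% of genes tested. In TG splenic CD4 cells over TG CD4SP the median log2 fold change was 1.26 over the 13 members with the tract at the start. It was 1.12 over the other 43, and in WT DP over WT DN3 these medians were -1.28 and -1.33. The split rests on the annotated start alone, and 48.2% of members held a tract within 5 bases of it. It therefore cannot separate members by the tract of their mRNAs, and the effect of the tract was not tested.

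The mouse gene Lmo2 had 25.4, 20.1 and 19.1 CPM (counts relative to library size, scaled with TMM factors) in TG DN3, against 0.287, 0.218 and 0.211 CPM in WT DN3. In DN1 it had 36.4, 38.7 and 45.1 CPM in TG and 31.7 CPM in WT, and in DN 16.7, 27.2 and 17.7 CPM in TG and 4.25, 4.31 and 3.63 CPM in WT. TG DP had 78.8, 70.0 and 0.395 CPM and WT DP 0.473, 0.119 and 0.237 CPM, so the third library labelled TG DP lay with the WT ones. In the single-positive cells it had 23.3, 75.3 and 40.2 CPM in TG CD4SP, 1.33, 1.05 and 2.30 CPM in WT CD4SP, 43.2, 35.6 and 71.5 CPM in TG CD8SP and 0.952, 0.302 and 0.264 CPM in WT CD8SP. Splenic values were 53.8, 40.6 and 86.1 CPM in TG CD4 cells and 91.2, 51.8 and 41.4 CPM in TG CD8 cells. Libraries held 17211426 to 28842773 counted reads, and the column names of 12 of the 40 end in an N that no label explains. DN1 libraries of both genotypes carried Cd4 at 426 to 706 unscaled CPM, against 2.96 to 30.0 in DN3. Sort markers went against further labels in unscaled CPM. Among TG CD4SP libraries Cd4 was at 197, 2067 and 1292, Cd8a at 95.4, 2950.2 and 820.0 and Rag1, a gene of receptor rearrangement that marks DP cells, at 189.6, 6188 and 2259, so the first had little Cd4, the second carried Cd8a and Rag1 at DP levels and the third carried some of both. In WT CD4SP Cd8a was at 48.8, 44.7 and 146. Cd4 was at 146, 151 and 1336 in TG CD8SP and 88.8, 30.8 and 844 in WT CD8SP, and Rag1 at 1225, 658 and 5771 in TG CD8SP and 605, 460.5 and 2988 in WT CD8SP, both highest in the third library of each genotype. Replicate 1 of TG splenic CD8 cells had the most B-cell marker reads of any library, 3973 CPM over 7 genes, and 3203 CPM of 8 myeloid markers. Replicate 3 of TG splenic CD4 cells had 4.98% of its reads on haemoglobin genes, and WT DN replicate 3 had 2.31%.

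Per length, the level of members spread widely. By the authors' FPKM, averaged over the 14 group means, the members ran between 63.9 and 3229 with a median of 1352. Rps26 at 3229 FPKM, Rps27 at 2903, Rpl23a at 2804, Rplp1 at 2759 and Rplp0 at 2458 were the 5 highest. Rplp0 and Rplp1 belong, with Rplp2, to the acidic stalk of the large subunit, which recruits elongation factors. The lowest 5 were Rps6 at 63.9 FPKM, Rps15a at 132, Rpl22 at 134, Rps20 at 142 and Rpl37 at 441. The length implied by CPM over FPKM was 4993 bases for Rps15a, 3303 for Rps20 and 2035 for Rpl22, against 205 for Rps27. A greater length gives a lower FPKM for the same reads. For Rps6 it was 1250.5 bases and for Rpl37 723.5, against 1278.5 for Rpl4 at 1509 FPKM. Rps6 was also the lowest member by mean CPM, at 80.4 against a member median of 763. Ribosomal protein genes have many near-identical processed copies in the genome, and how the counting treated reads that fit several places is stated in no source used here.

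Across the 40 libraries the members moved together. The log2 CPM of each member was correlated with the log2 of the summed CPM of the other members. Pearson's r was between 0.784 and 0.990, with a median of 0.955, and 69 of 76 were over 0.9. This is a description over libraries that share stage and depth. The sum of large-subunit reads over that of small-subunit reads stayed between 1.35 and 1.68. Its lowest mean was 1.39 ± 0.0386 in TG splenic CD4 cells and its highest 1.62 ± 0.0615 in WT DP (SD, n = 3 each).

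The share of counted reads on the 76 genes differed widely between stages. It was 5.11, 5.59 and 7.38% in TG DN1 and 6.74% in WT DN1. TG DN3 had 6.13, 6.45 and 7.28%, and WT DN3 had 9.66, 6.92 and 8.50%. DN had 4.58, 6.07 and 5.89% in TG and 6.41, 5.49 and 4.32% in WT. The share was lowest in DP, with 4.46, 3.995 and 3.22% in TG and 2.99, 3.01 and 2.88% in WT, and the 3 TG libraries all lay above the 3 WT ones. CD4SP had 6.45, 4.197 and 4.72% in TG and 5.13, 5.28 and 4.15% in WT, and CD8SP had 5.67, 6.67 and 5.09% in TG and 7.98, 8.16 and 6.04% in WT. In the spleen it reached 8.63, 9.68 and 11.9% in TG CD4 cells and 6.22, 11.1 and 12.1% in TG CD8 cells. The first TG CD8 library, rich in B-cell and myeloid markers, lay far below the other two. TG splenic CD4 replicate 3 had 1685 unscaled CPM of B-cell and 2769 of myeloid markers, and the highest share of its group. The part of these markers in the share was not tested. A share of reads does not give the amount per cell, and in these bulk samples fewer cells of a type and less RNA per cell cannot be told apart. By mean CPM per group, leaving out the single WT DN1 library, WT DP was the lowest group for 75 of 76 members. The highest was TG splenic CD4 for 47, TG splenic CD8 for 27 and WT DN3 for 2, Rpl28 among them.

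**Figure D1:**
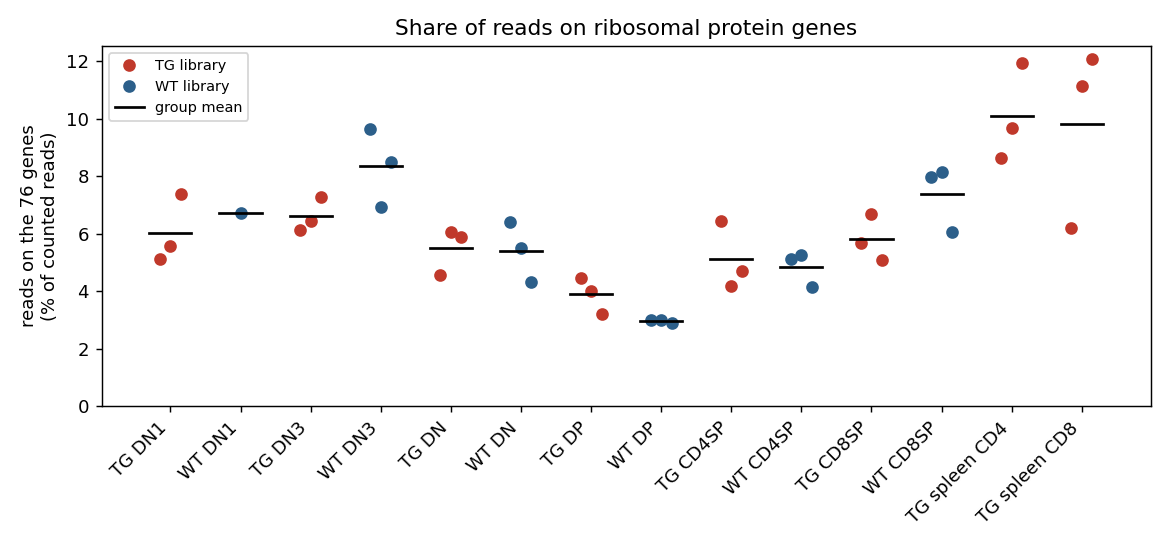
Percent of counted reads on the 76 ribosomal protein genes in each library, by group. Points are libraries, TG in red and WT in blue, and the black line is the group mean. WT DP lies lowest, at 2.88% to 3.01%, and the splenic groups reach 12.1%.

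WT DP cells had less ribosomal protein mRNA than WT DN3 cells in every member. All 76 fell past the threshold, against 31.4% of 11953 genes that fell in this comparison (60.0% changed in either direction). The median log2 fold change of members was -1.34, a level of 0.395 times that of DN3, and that of all genes was -0.02. Rpl36a, a large-subunit protein gene on the X chromosome, had 91.7, 99.7 and 96.5 CPM in WT DP, against 488, 361 and 408 CPM in WT DN3. It fell by 2.14 ± 0.17 on the log2 scale (edgeR quasi-likelihood test, Benjamini-Hochberg, adjusted p = 9.31e-06). The peptidyl transferase centre protein Rpl3 had 477, 499 and 479 CPM in WT DP and 1911, 1536 and 1725 CPM in WT DN3, a fall of 1.85 ± 0.16 (same test, edgeR, adjusted p = 1.67e-05). Rpl14 fell by 1.77 ± 0.17. At the other end Rps27, a zinc-finger protein of the small subunit, had 349.7, 334 and 307 CPM in WT DP and 550.0, 445 and 509.9 CPM in WT DN3, and fell by 0.62 ± 0.16 (edgeR, adjusted p = 0.00779). The groups did not overlap in any of these 4 genes.

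Genes that make and serve ribosomes were counted in the same comparison. Of 55 genes of ribosome biogenesis and RNA polymerase I, 47 fell and 1 rose in WT DP over WT DN3, with a median of -1.41. Polr1b, a subunit of RNA polymerase I, fell by 2.83 ± 0.14, and Gnl3, the nucleolar protein nucleostemin, by 2.76 ± 0.17. Of 36 translation factors 22 fell and 1 rose, among them the elongation factor subunits Eef1g, by 1.76 ± 0.18, and Eef1b2, by 1.56 ± 0.16. Among 27 regulators by way of mTOR and MYC 13 rose and 8 fell: Myc, which drives ribosome genes, fell by 4.02 ± 0.15, and Ddit4, an inhibitor of mTOR, rose by 1.56 ± 0.15. Of 15 cell division genes 6 rose and 5 fell. Of 12 tested genes of the p53 response 6 rose and 3 fell.

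**Figure D2:**
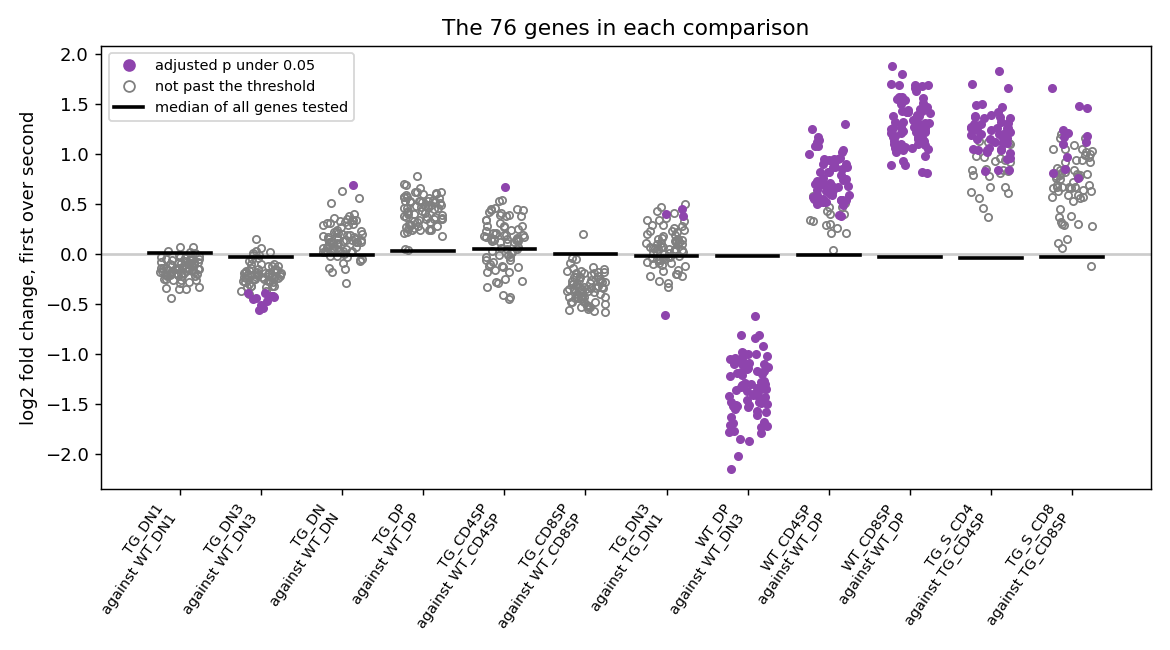
Log2 fold change of each of the 76 genes (points) in 12 comparisons, first group over second. Filled points passed the adjusted threshold, and black bars are the median of all genes tested. All 76 points of WT DP over WT DN3 lie below 0, and all 76 of WT CD8SP over WT DP above it.

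Both single-positive populations of WT mice had more ribosomal protein mRNA than WT DP cells. In WT CD8SP all 76 members rose, against 20.8% of all genes (37.7% changed in either direction), with a median of 1.27. Rpl3 had 1817, 1818 and 1276 CPM in WT CD8SP, against 477, 499 and 479 CPM in WT DP, and rose by 1.70 ± 0.19 (edgeR quasi-likelihood test, Benjamini-Hochberg, adjusted p = 0.000893). Rpl12, of the base of the stalk, rose by 1.69 ± 0.19, and Rpsa, a small-subunit protein also known as the laminin receptor, by 1.63 ± 0.19. In WT CD4SP 61 of 76 rose and none fell, against 23.4% of all genes that rose (43.9% changed), with a median of 0.66. Rpl12 had 976, 972 and 782 CPM in WT CD4SP and 363, 388 and 372 CPM in WT DP, a rise of 1.30 ± 0.14 (edgeR, adjusted p = 0.000315). Rps12 rose by 1.17 ± 0.15 there. Rpl28 did not pass, with 452, 496 and 423 CPM in WT CD4SP and 512, 430.0 and 407 CPM in WT DP, groups that overlap, and a log2 fold change of 0.04 ± 0.15. The count in CD4SP was 34 without WT CD4SP replicate 1, 35 without its replicate 2, 40 without WT DP replicate 2 and 36 without WT DP replicate 3. In these fits 2125 of 12086, 2121 of 12129, 2261 of 12127 and 2256 of 12119 genes rose.

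Ribosome biogenesis genes rose in both, 42 of 55 in WT CD8SP with 1 fall, and 36 in WT CD4SP with 2 falls. Myc rose by 2.81 ± 0.21 in WT CD8SP. Translation factors rose in 23 of 36 with no fall in WT CD8SP, and in 6 with 2 falls in WT CD4SP. The summed level of 15 cell division genes was 5698, 5965 and 5129 unscaled CPM in WT CD8SP, 1052, 1030.3 and 1229 in WT CD4SP and 2701, 4863 and 4174 in WT DP. All 15 of these genes fell in WT CD4SP over WT DP, while 6 rose in WT CD8SP. Without WT CD8SP replicate 3, the WT CD8SP library with the most Rag1 and Cd4, all 76 members still rose in WT CD8SP over WT DP, with a median of 1.41.

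Most ribosomal protein mRNAs were higher in TG splenic CD4 cells than in the libraries labelled TG CD4SP. Sort markers of the latter went partly against that label. Cd4 was at 197, 2067 and 1292 unscaled CPM in them and Rag1 at 189.6, 6188 and 2259. Over TG CD4SP, 51 of 76 members rose in TG splenic CD4 cells and none fell, against 12.5% of all genes that rose (24.5% changed). The median was 1.11 (-0.04 over all genes), and in 74 members the groups did not overlap, which held for 26.7% of all genes in that direction. Rps27 had 1314, 1383 and 2036 CPM in TG splenic CD4 cells, against 502, 395 and 402 CPM in TG CD4SP. It rose by 1.83 ± 0.26 (edgeR quasi-likelihood test, Benjamini-Hochberg, adjusted p = 0.00957). Rps21 had 554, 626 and 747 CPM in TG splenic CD4 cells and 224, 161 and 193 CPM in TG CD4SP, a rise of 1.70 ± 0.23, and Rpl37a rose by 1.47 ± 0.22. The count was 7, 4 and 10 without TG splenic CD4 replicates 1, 2 and 3. In these fits 203 of 12831, 330 of 12970 and 614 of 12827 genes rose, against 1575 of 12578 with all libraries. The count of members was 62 without TG CD4SP replicate 1, and 29 each without its replicates 2 and 3. There 851 of 12978, 1250 of 12926 and 1745 of 12933 genes rose. All 76 members stayed positive in every such fit, with medians of 0.87 to 1.33.

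In TG splenic CD8 cells over TG CD8SP 13 members rose and none fell, against 17.2% of all genes that rose (37.3% changed), so the share of members called was close to that of all genes. The median was 0.79 (-0.03 over all genes). In 23 members the groups did not overlap and the spleen was higher, against 28.2% of all genes, and in none was it wholly lower, against 27.9%. Without TG splenic CD8 replicate 1, the library rich in B-cell and myeloid markers, 68 members rose and their median was 1.05. Over all genes 2413 of 12338 rose in that fit. Leaving out TG CD8SP replicate 1, 2 or 3 gave 1, 8 and 1 members, with 1081 of 12454, 1700 of 12460 and 1354 of 12523 genes. Leaving out TG splenic CD8 replicate 2 or 3 gave 1 and 4 members, with 1521 of 12481 and 1786 of 12511 genes. Rps27 had 953, 1381 and 1677 CPM in TG splenic CD8 cells and 387, 397 and 425 CPM in TG CD8SP, and rose by 1.67 ± 0.26 (edgeR quasi-likelihood test, Benjamini-Hochberg, adjusted p = 0.00507). Rps21 rose by 1.48 ± 0.35 and Rps24 by 1.18 ± 0.28.

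No gene of ribosome biogenesis passed upward in the spleen. In TG splenic CD4 cells over TG CD4SP none of 55 biogenesis genes rose and 3 fell, with a median of -0.01, and in TG splenic CD8 cells over TG CD8SP none rose and 2 fell. All 15 cell division genes fell in both. Of 36 translation factors 6 rose and none fell in the CD4 comparison, and 1 rose and 7 fell in the CD8 comparison. Tpt1, itself a TOP mRNA, rose by 1.26 ± 0.23 in TG splenic CD4 cells. Of 27 mTOR and MYC regulators 1 rose and 7 fell for CD4, and 1 rose and 4 fell for CD8. Of 13 genes of the p53 response none rose, 3 fell for CD4 and 4 for CD8. Of 7 B-cell markers 6 rose in the CD4 comparison and 7 in the CD8 comparison, and of 7 tested myeloid markers 6 rose in each. B-cell sums came to 933, 455 and 1685 unscaled CPM in TG splenic CD4 cells, 3973, 694 and 445 in TG splenic CD8 cells and 10.7 to 68.4 in TG thymic CD4SP and CD8SP libraries. Erythroid markers rose in 6 of 7 tested for CD4 and 2 of 6 for CD8, NK markers in 2 of 4 and 4 of 4, dendritic cell markers in 1 of 4 each, and stroma markers in none, with 3 of 5 lower for CD4. Erythroid sums were 2216, 1007 and 50892 unscaled CPM in TG splenic CD4 cells and 256, 83.0 and 327 in TG CD4SP. Their part in the result was not tested. The suffix N falls on 2 of 3 splenic libraries of each kind. With a term for it 34 members rose for CD4 and 11 for CD8, as did 1362 of 12578 and 2321 of 12185 genes. The CD8 median over members was then 0.47 with 67 of 76 positive, against 75 without the term.

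At DN3 some members were lower in TG cells. Of 76, 11 fell and none rose, against 22.2% of 12037 genes that fell (45.7% changed in either direction), so the share of members called was below that of all genes. The median log2 fold change was -0.22, 71 of 76 were negative, and the median of all genes was -0.03. The members' median was -0.12 without WT DN3 replicate 1, with 16 positive, and -0.35 without WT DN3 replicate 2. In 12 members the groups did not overlap and TG was lower, against 29.1% of all genes. Rpl36a had 283, 281 and 302 CPM in TG DN3, against 488, 361 and 408 CPM in WT DN3. It fell by 0.54 ± 0.12 (edgeR quasi-likelihood test, Benjamini-Hochberg, adjusted p = 0.00792). Rps12, a small-subunit protein, had 526, 533 and 584 CPM in TG DN3 and 970.1, 660.3 and 797 CPM in WT DN3, a fall of 0.56 ± 0.14 (edgeR, adjusted p = 0.0126). Rps27a, made as a fusion with ubiquitin, had 503, 529 and 589 CPM in TG DN3 and 898, 658 and 750.3 CPM in WT DN3, and fell by 0.51 ± 0.13. The 3 TG libraries lay below all 3 WT ones in each of these genes. Rpl21 fell by 0.44 ± 0.12, and Rpl5 and Rpl11, the partners of Mdm2, by 0.42 ± 0.13 and 0.43 ± 0.14. Rpl14, Rpl31, Rps23 and Rpl23a also fell, by 0.39 to 0.47.

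WT DN3 replicate 2 had fewer ribosomal protein reads than the other WT DN3 libraries. Without it 39 members fell, as did 3028 of 12235 genes. The count of members was 1 without TG DN3 replicate 1, 2 without its replicate 2, and 3 each without WT DN3 replicates 1 and 3. There 2076 of 12205, 2264 of 12185, 2008 of 12218 and 1770 of 12203 genes fell. A fit of all 40 libraries called no member, while 1063 of 14845 genes fell. Of 55 biogenesis genes 20 fell and 5 rose in TG DN3, led by Taf1c and Taf1d, factors of RNA polymerase I, which fell by 0.86 ± 0.09 and 0.80 ± 0.11. Of 36 translation factors 10 fell and 6 rose: the helicase Eif4a2 fell by 0.92 ± 0.09, and Pabpc1, the poly(A)-binding protein, rose by 0.92 ± 0.13. Of 27 mTOR and MYC regulators 12 rose and 5 fell. Deptor, an mTOR inhibitor, rose by 2.24 ± 0.13, and Rptor, the scaffold of mTOR complex 1, by 1.15 ± 0.11. Of 13 genes of the p53 response 5 rose and 2 fell: Zmat3 rose by 1.96 ± 0.23, and Cdkn1a, the cell cycle inhibitor, fell by 5.08 ± 0.49. Sums of B-cell markers were 27.6, 16.9 and 21.5 unscaled CPM in TG DN3 and 56.0, 55.6 and 68.7 in WT DN3, and those of stroma markers 15.5, 10.9 and 24.1 in TG DN3 and 60.3, 56.7 and 64.8 in WT DN3. Their part in the result was not tested.

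In DP cells the direction was the opposite, without a call. All 76 members had a positive log2 fold change of TG over WT, with a median of 0.44 (0.03 over all genes), and 0 of 76 passed, as did 0 of 11649 genes (0.0%). At an unadjusted p under 0.05 there were 33 members and 2450 genes, and DESeq2 called 328 genes higher and 290 lower, none of them a member. The groups did not overlap in 21 members, with TG higher, against 12.7% of all genes, and in none was TG wholly lower, against 9.95%. Without TG DP replicate 3, the library with no Lmo2 above WT, 11 members and 569 of 11919 genes rose. The median over members was 0.59 there. Without TG DP replicate 1 the median was 0.26, with 73 of 76 positive. At an unadjusted p under 0.05 there were then 2 members and 1157 of 11861 genes. Without TG DP replicate 2, WT DP replicate 2 or WT DP replicate 3 the number of members was 3, 4 and 2. In these fits 1412 of 11853, 903 of 11913 and 919 of 11912 genes had such a p. Rps12 is given as an example picked after its values were seen. It had 331, 301 and 229 CPM in TG DP and 209.7, 257 and 205 CPM in WT DP, where the third TG library lay inside the WT range.

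An interaction term, fitted to 12 libraries, tested how far the genotype effect at DP differs from that at DN3. It was positive in all 76 members with a median of 0.65 (0.05 over all genes), and 4 passed, none in the negative direction, against 4.88% of 12451 genes in that direction (10.2% in either). Among these were Rps12 at 0.94 ± 0.26, Rpl14 at 0.84 ± 0.23 and Rpl36a at 0.80 ± 0.22, with adjusted p between 0.0386 and 0.0421 (edgeR quasi-likelihood test, Benjamini-Hochberg). Rpl14 had 275, 288 and 199.7 CPM in TG DP and 185, 202 and 191 CPM in WT DP, and 456, 499 and 504 CPM in TG DN3 and 761, 557 and 636 CPM in WT DN3. The third TG DP library lay inside the WT DP range, while in DN3 all TG libraries lay below the WT ones. The number of members called was 53 without TG DP replicate 3, 25 without WT DN3 replicate 2 and 8 without WT DP replicate 1. In these fits 1384 of 12685, 961 of 12671 and 894 of 12683 genes passed in the positive direction. No member was called without any one of the other 9 libraries. The number of members was 0 in the fit of all 40 libraries and 17 by DESeq2, where 199 of 14845 and 987 of 12766 genes were positive.

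**Figure D3:**
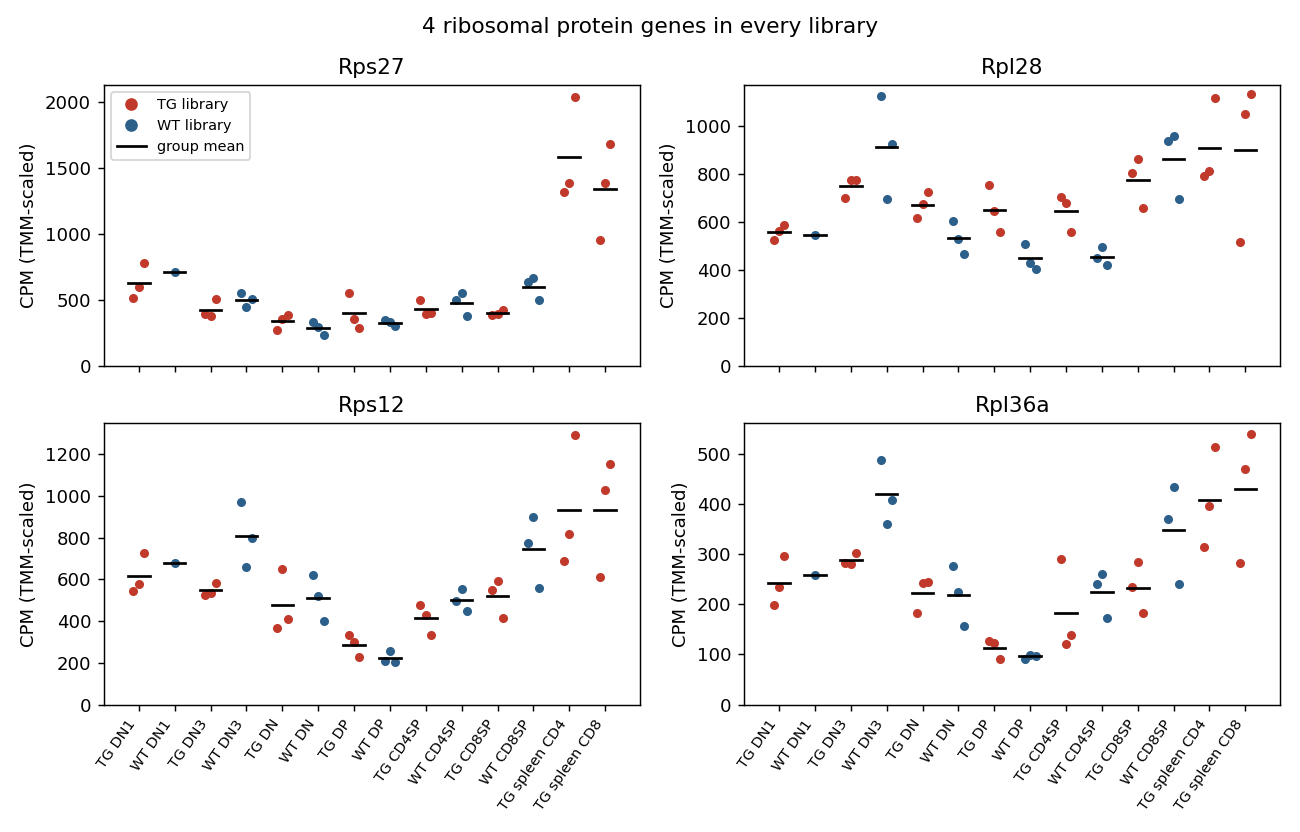
TMM-scaled CPM of Rps27, Rpl28, Rps12 and Rpl36a in each library, by group, on linear axes from 0. Points are libraries, TG in red and WT in blue, and black lines are group means. Rps27 is highest in the spleen, up to 2036 CPM, while Rpl28 reaches 1137 CPM there and 1125 CPM in WT DN3.

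In total DN and in CD4SP the same single member rose in TG cells, and it lies on chromosome 15. Rpl8, a large-subunit protein near the peptidyl transferase centre, had 1486, 1445 and 1625 CPM in TG DN, against 996, 875 and 870.0 CPM in WT DN. It rose by 0.69 ± 0.15 (edgeR quasi-likelihood test, Benjamini-Hochberg, adjusted p = 0.0249), 1 of 76 against 12.4% of 12509 genes that changed (7.47% rose and 4.89% fell). In CD4SP Rpl8 had 1583, 1191 and 1223 CPM in TG, against 812, 861 and 871 CPM in WT, a rise of 0.67 ± 0.19 (edgeR, adjusted p = 0.0397), 1 of 76 against 25.9% of 12073 genes. Rpl8 did not overlap between genotypes in either population. The suffix N falls on replicates 1 and 3 of TG DN and of TG CD4SP, and on no WT DN or WT CD4SP library. No term for it was fitted in either comparison, so its part was not tested. As given above, TG CD4SP replicate 2 carried Cd8a and Rag1 at DP levels. Over all members TG lay wholly above WT in 13 in DN, against 21.1% of all genes, and in 11 in CD4SP, against 23.1%. The call was lost in DN without TG DN replicate 3, WT DN replicate 1 or WT DN replicate 2, and in CD4SP without any one of the 3 WT CD4SP libraries, with a log2 fold change of at least 0.62 in these fits. The median over all members was 0.13 in DN, and 0.01 to 0.25 with 1 library left out. In CD4SP it was 0.14, and -0.03 to 0.22 with 1 library left out, the lowest being without TG CD4SP replicate 1, the library with little Cd4, where 33 of 76 members were positive. Haemoglobin reads were 0.00452, 0.280 and 0.0425% of the total in TG DN and 0.195, 0.172 and 2.31% in WT DN. Without WT DN replicate 3, the library with the most, Rpl8 was still called and the median over members was 0.01, with 41 of 76 positive. In TG CD4SP over WT CD4SP all 15 cell division genes rose, with sums of 5356, 5089 and 2385 unscaled CPM in TG and 1052, 1030.3 and 1229 in WT. There 4 of 5 tested B-cell markers also rose, with sums of 41.3, 20.6 and 68.4 unscaled CPM in TG CD4SP and 3.25, 2.68 and 5.42 in WT CD4SP, as did 2 of 5 myeloid, 1 of 5 stroma and 1 of 4 dendritic cell markers. None of 5 erythroid or 3 NK markers passed, and of 15 sort markers 4 rose and 1 fell. The part of these markers in the CD4SP result was not tested.

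The members on chromosome 15 are Rpl8, Rpl30, Rpl37 and Rpl3, a grouping made after their values were seen. In TG DN over WT DN the first 3 had the 3 highest log2 fold changes of the 76. Rpl30 had 472, 498 and 514 CPM in TG DN and 385, 289.7 and 257 CPM in WT DN, with a log2 fold change of 0.63 ± 0.18 that did not pass. Rpl37 had 300.4, 333 and 345 CPM in TG DN and 256, 214 and 172 CPM in WT DN, with 0.56 ± 0.18, which did not pass either. Groups of both genes stood apart. Rpl3 differed from them, with 1191, 1398 and 1256 CPM in TG DN and 1472, 1226 and 1087 CPM in WT DN, ranges that overlap. In TG CD8SP over WT CD8SP Rpl8, Rpl37 and Rpl30 again ranked 1, 2 and 3, at 0.20, -0.04 and -0.05, none past the threshold, and Rpl8 ranked 1 in DP and CD4SP too. In DN3, by contrast, they ranked 8, 55 and 51. Over all genes tested, chromosome 15 had the highest median log2 fold change of 20 chromosomes in each of the 6 genotype comparisons, at 0.54 over 491 genes in DN, 0.52 in CD4SP, 0.34 in DP, 0.33 in CD8SP, 0.19 in DN3 and 0.08 in DN1.

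**Figure D4:**
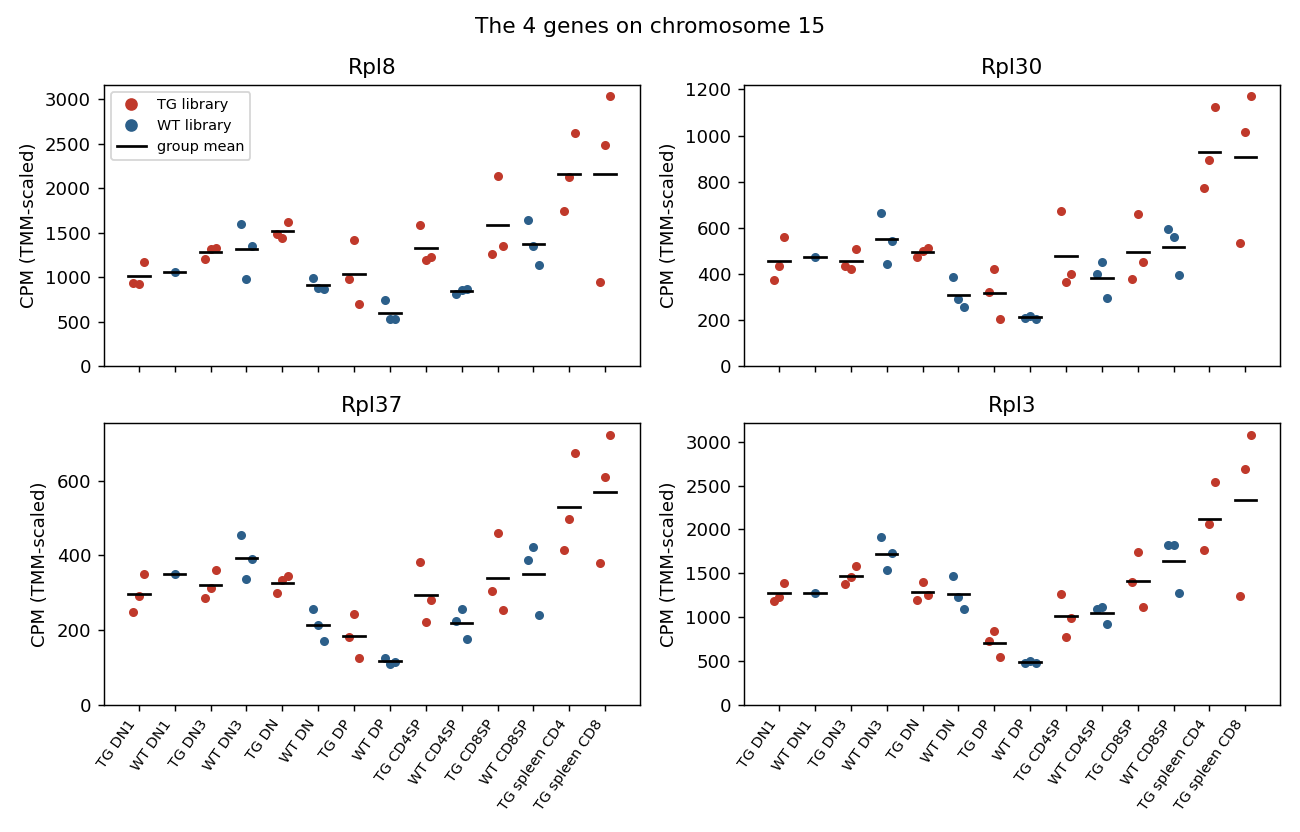
TMM-scaled CPM of Rpl8, Rpl30, Rpl37 and Rpl3, the members on chromosome 15, in each library by group, on linear axes from 0. Points are libraries, TG in red and WT in blue, and black lines are group means. In DN the TG libraries lie above all WT ones for Rpl8, Rpl30 and Rpl37, and overlap them for Rpl3.

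In CD8SP 75 of 76 members were lower in TG than in WT and none passed, against 4.45% of 11697 genes that changed (2.09% rose and 2.36% fell). TG lay wholly below WT in 3 members, against 13.8% of genes. The median was -0.34, and 0.00 over all genes. At an unadjusted p under 0.05 there were 17 members and 2270 of 11697 genes. DESeq2 called 1 member lower, as it did 649 of 13273 genes. Rps27 came nearest, with 387, 397 and 425 CPM in TG CD8SP, against 640.2, 664 and 497 CPM in WT CD8SP, groups that do not overlap, and -0.57 ± 0.16 (edgeR quasi-likelihood test, Benjamini-Hochberg, adjusted p = 0.0976). Replicate 3 of both genotypes had the most Rag1, 5771 unscaled CPM in TG and 2988 in WT. Without both of these libraries, a choice made after seeing the data, again no member passed. In DN1 no member passed, nor any of 14845 genes (0.0%). The median was -0.15 in a fit that takes the single WT library to vary like the other groups, and -0.05, -0.10 and -0.30 without TG DN1 replicate 1, 2 and 3. Before adjustment, p was under 0.05 for no member and for 157 genes. By DESeq2 3 genes passed, none a member.

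Between the TG subsets DN3 and DN1 few members passed. Rpl28, Rpl7a and Rps6 rose and Rps27 fell in TG DN3 over TG DN1, 4 of 76 against 61.2% of 12936 genes that changed, with a median of 0.07. Rpl28 had 701, 778 and 779 CPM in TG DN3, against 526, 563 and 588 CPM in TG DN1, and rose by 0.38 ± 0.11. Rps6, the protein phosphorylated by the S6 kinases downstream of mTOR, had 80.103, 83.612 and 79.996 CPM in TG DN3 and 51.0, 56.4 and 71.5 CPM in TG DN1, a rise of 0.40 ± 0.13. Rps27 had 396, 377 and 511.8 CPM in TG DN3 and 512.4, 599.5 and 780.2 CPM in TG DN1, groups that lie close but do not overlap, and fell by 0.61 ± 0.19 (edgeR quasi-likelihood test, Benjamini-Hochberg, adjusted p = 0.0226). Leaving out TG DN1 replicate 1, 2 or 3 gave 2, 1 and 26 calls, and leaving out TG DN3 replicate 1, 2 or 3 gave 2, 0 and 1. The 26 calls were rises, in a fit where 3870 of 13116 genes rose. The median over members ran from -0.04 to 0.24 with 1 library left out. It was below 0 without TG DN1 replicate 1 or TG DN3 replicate 3. Biogenesis genes did change, with 46 of 55 up and none down, and all 15 cell division genes rose. Markers of other cells fell in TG DN3 over TG DN1: all 7 for B cells, 8 myeloid, 4 NK and 4 dendritic cell markers and 5 of 7 erythroid ones, while of 3 stroma markers 1 rose and 1 fell. B-cell sums were 27.6, 16.9 and 21.5 unscaled CPM in TG DN3 and 988, 655 and 794 in TG DN1, and myeloid sums 4.75, 6.50 and 4.34 in TG DN3 and 557, 334 and 656 in TG DN1. Their part in the result was not tested.

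The make-up of the ribosomal protein reads shifted in a few members. Taking each member's percent of the reads on all 76, the highest group mean was over the lowest by a median of 0.51 on the log2 scale, and in 73 members by less than 1. Rps27 had the widest range, 1.21, with 1.41% ± 0.0648 in TG splenic CD4 cells and 0.608% ± 0.0248 in WT DN (SD, n = 3 each). It was 1.07% ± 0.0536 in TG DN1, 0.966% ± 0.184 in TG DP and 1.10% ± 0.0217 in WT DP. The range was 1.02 for Rpl36a, 0.98 for Rpl28 and 0.90 for Rps21. Rpl36a had 0.450% ± 0.0222 in TG DN3 and 0.565% ± 0.0217 in WT DN3, and 0.279% ± 0.00705 in TG DP and 0.320% ± 0.0327 in WT DP. The steadiest were Rpl27a, Rps3, Rpl9, Rpl6 and Rplp2, at 0.22 to 0.27.

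Of 14 members named for a known role, Rpl5 and Rpl11 fell in TG DN3, as above, and the other 12 had no call between genotypes. Rpl22 had 269, 278 and 333 CPM in TG DN3 and 397, 305 and 340.3 CPM in WT DN3, ranges that overlap, and no genotype comparison called it. Its paralog Rpl22l1 had 47.7, 46.7 and 52.9 CPM in TG DN3, below all of 85.2, 61.9 and 71.0 CPM in WT DN3, and fell by 0.56 ± 0.13 (edgeR quasi-likelihood test, Benjamini-Hochberg, adjusted p = 0.00758). Rpl22l1 was lowest in DP, at 21.4, 13.2 and 14.1 CPM in TG and 11.1, 18.3 and 15.2 CPM in WT. Rpl10, mutated in some human T-cell leukaemias, had 1082, 1029.7 and 1255 CPM in TG DN3 and 1489, 1040.2 and 1343 CPM in WT DN3, and 737, 677 and 494 CPM in TG DP and 455, 454 and 406 CPM in WT DP, with no call in a genotype comparison. For Rpl38, known from skeletal patterning in mice, the log2 fold change was -0.32 ± 0.16 in DN3 and 0.57 ± 0.23 in DP. For Rps19, the gene most often mutated in Diamond-Blackfan anaemia, it was -0.20 ± 0.15 and 0.58 ± 0.23, and for Rps14, lost in a form of myelodysplastic syndrome, -0.18 ± 0.17 and 0.43 ± 0.28. Rps4x had -0.28 ± 0.14 and 0.35 ± 0.17, Rplp0 -0.01 ± 0.13 and 0.53 ± 0.21, Rplp1 -0.19 ± 0.17 and 0.62 ± 0.23, and Rplp2 -0.15 ± 0.19 and 0.46 ± 0.30. None of these 7 passed in a comparison of TG with WT.

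The rule leaves out 12 measured relatives, of which Rpl3l had the largest TG over WT fold change in DN3 and in DN. Rpl3l, the paralog of Rpl3 that heart and skeletal muscle use, had 4.86, 4.69 and 20.5 CPM in TG DN3, against 0.860, 0.545 and 0.704 CPM in WT DN3. It had 17.1, 3.76 and 5.79 CPM in TG DN and 0.196, 0.407 and 0.0773 CPM in WT DN, which is 391, 116 and 127 reads in TG and 6, 12 and 2 in WT. In CD4SP it was at 16.9, 3.81 and 4.27 CPM in TG and 0.114, 0 and 0 CPM in WT, and in CD8SP at 4.47, 7.05 and 1.62 CPM in TG and 0.0501, 0 and 0.132 CPM in WT. No TG library overlapped a WT one in these 4 populations, and Rpl3l rose in each of them, by 3.82 ± 0.67 in DN3 and 5.18 ± 0.79 in DN, with adjusted p of 0.00288 and 0.00987 (edgeR quasi-likelihood test, Benjamini-Hochberg). Fold changes in CD4SP and CD8SP are not given, since WT held 3 reads or fewer per library, and the adjusted p was 0.0104 and 0.0227. TG DP had 8.09, 10.3 and 0.215 CPM and WT DP 0.142, 0.119 and 0.118 CPM, the third TG library being again the one with Lmo2 at 0.395 CPM. In the spleen Rpl3l was at 0.432, 0.156 and 0.100 CPM in TG splenic CD4 cells and 0.1252, 0.0639 and 0.211 CPM in TG splenic CD8 cells, where Lmo2 was at 40.6 CPM or more. It fell in TG splenic CD4 cells over TG CD4SP and in TG splenic CD8 cells over TG CD8SP, with adjusted p of 0.0151 and 0.00533 in the same edgeR test, and in TG DN1 it had 0.853, 0.486 and 0.481 CPM. Even at its highest, Rpl3l stayed far below Rpl3 in reads.

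**Figure D5:**
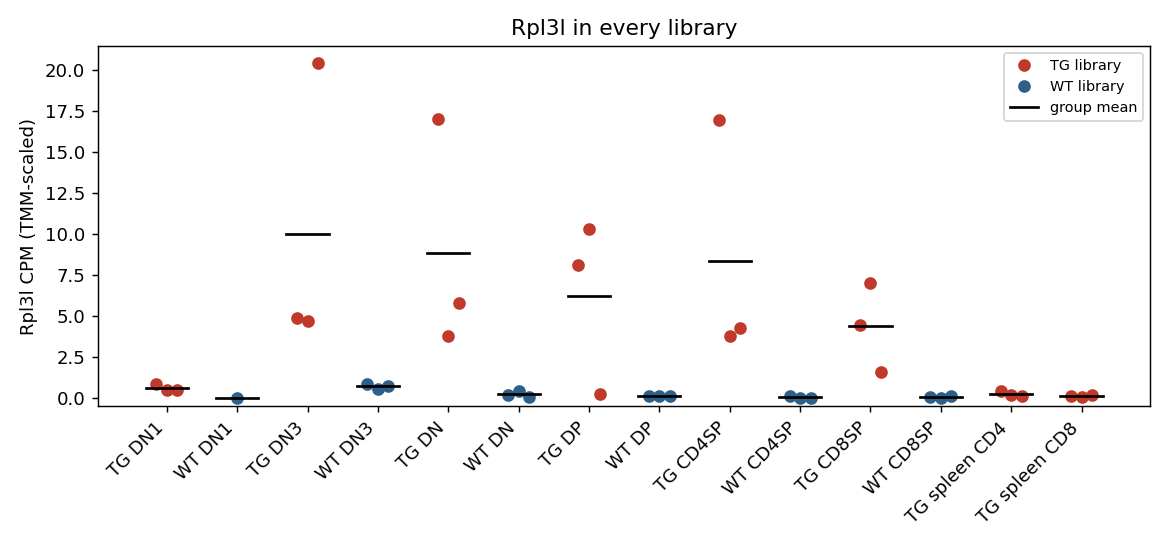
TMM-scaled CPM of Rpl3l, a paralog outside the 76 genes, in each library by group. Points are libraries, TG in red and WT in blue, and black lines are group means. TG DN3, DN, CD4SP and CD8SP libraries lie at 1.62 to 20.5 CPM, WT libraries below 1 CPM, and TG splenic libraries below 1 CPM.

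The other relatives were tested in the same comparisons. In TG DN3 over WT DN3, 4 of the 9 tested relatives fell, namely Rpl22l1, Rps27l, Rpl36al and Rps3a1, the mouse gene of a small-subunit protein, and only Rpl3l rose. In WT DP over WT DN3 7 fell and none rose, in WT CD8SP over WT DP 7 of 8 rose, and in WT CD4SP over WT DP 2 rose and 1 fell. Rps27l, a paralog of Rps27 and a known p53 target, had 83.7, 34.3 and 22.3 CPM in TG CD4SP, above all of 10.04, 11.9 and 15.02 CPM in WT CD4SP, and rose by 1.93 ± 0.47 (edgeR quasi-likelihood test, Benjamini-Hochberg, adjusted p = 0.0275). It fell in TG splenic CD8 cells over TG CD8SP, by 1.47 ± 0.27. Fau, the fusion that yields Rps30, rose by 1.43 ± 0.22, and Rack1, a scaffold on the small subunit, by 1.06 ± 0.25, in TG splenic CD4 cells over TG CD4SP. Rpl7l1 rose by 0.36 ± 0.09 in TG DN3 over TG DN1, its only call. Rpl10l was at 0 CPM in 39 of 40 libraries.

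Genes of ribosome assembly and translation outside DN3 are set against all genes, of which 12.4% changed in DN, 25.9% in CD4SP, 4.45% in CD8SP and 0.0% in DP and DN1. Of 55 biogenesis genes 3 rose and 1 fell in TG DN, 3 rose and 1 fell in TG CD4SP, and none passed in TG CD8SP, nor in TG DP or TG DN1, where no gene did. Bop1, a factor of large-subunit assembly that lies on chromosome 15, rose by 0.62 ± 0.13 in TG DN. Of 36 translation factors 5 rose and 1 fell in TG DN, 9 rose and 2 fell in TG CD4SP, and 1 fell in TG CD8SP. Eif3d rose by 0.90 ± 0.14 in TG DN and by 0.99 ± 0.17 in TG CD4SP, and Eif4a2 fell by 1.13 ± 0.22, 1.63 ± 0.24 and 0.95 ± 0.20 in TG DN, CD4SP and CD8SP. Of 27 mTOR and MYC regulators 3 rose and 1 fell in TG DN, and 5 rose and 1 fell in TG CD4SP, and Deptor rose in both, by 2.10 ± 0.24 and 3.99 ± 0.55. Of 13 genes of the p53 response 5 rose and 1 fell in TG DN, 4 rose and 1 fell in TG CD4SP, and 3 rose in TG CD8SP. Gtse1, which shuttles p53 out of the nucleus, rose by 1.53 ± 0.21 in TG DN and 3.52 ± 0.39 in TG CD4SP. Chromosome 15 had the highest median in every genotype comparison, as given above. Its part in the list genes named here and for DN3 was not tested.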

How the data were processed

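RNA-seq was deposited for 40 libraries as a table of raw counts per gene with FPKM beside them, both made by the authors. The submitters' processing notes name HISAT, DESeq2 and mm10 besides Bowtie2, MACS2 and mm9, without roles. No source used here gives parameters, strandedness or the treatment of multi-mapped reads. The anti-LMO2 ChIP peak lists were not used here, and 4 columns of samples outside the labels were left out.

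The test was the quasi-likelihood one of edgeR 4.0.16 (R 4.3.3, limma 3.58.1) on the deposited counts: filterByExpr (minimum count 10, total 15), TMM, robust fit of the libraries compared, prior count 0.125, Benjamini-Hochberg adjustment over all genes tested, threshold 0.05. A log2 fold change is given ± SE, taken from the F statistic. CPM of levels were scaled by TMM over all 40 libraries. The authors' FPKM served only to compare genes. DESeq2 1.42.0 was an alternative. Total counts were 17211426 to 28842773 per library. On simulated data for TG DN3 over WT DN3 (12055 genes), only 50 genes were changed at each fold. Of these, 82% of 2-fold rises, 0% of 1.33-fold rises, 74% of 0.5-fold falls and 2% of 0.75-fold falls were recovered. False calls were 5.95% of all calls. In the real comparison 45.7% of genes were called, so these rates do not carry over to it.

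The members, lists and tests were chosen with earlier results of these data known. Named members are those of known role, the 5 (3 for stages and spleen) with the smallest p per direction, and the 5 extremes of share range and FPKM; of other lists up to 3 genes per comparison with the smallest p, and all paralogs. Others are marked as picked after their values were seen, and a few genes are not reported here. Lists were relatives, biogenesis, translation factors, mTOR and MYC regulators, p53 response, cell division and markers of other cells.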

Additional observations from a re-analysis of the deposited data

Results flagged for a closer look

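A test of the difference itself was passed by 4 members, whose TG over WT log2 fold change in DP exceeded that in DN3. Among them the difference was 0.94 for Rps12, 0.84 for Rpl14 and 0.80 for Rpl36a, with an edgeR interaction term over 12 libraries. The 4 are out of 76 members, a share close to the 4.88% of all 12451 genes tested that passed in that direction. In each of the 4, the call held in 3 of 12 fits that left out 1 library. All 76 members had a positive difference in every such fit. TG DP replicate 3 had Lmo2 at 0.395 CPM, within the WT DP values of 0.119 to 0.473 CPM. Without that library 53 members passed, as did 1384 of 12685 genes in the positive direction.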

How the results depend on the processing

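Calls over all genes shift between fits as well, as given above for some of them. Counts of members called are given for TG over WT unless another pair is named. With each library left out in turn they ran from 1 to 39 in DN3, 0 to 1 in DN, 0 to 11 in DP, 0 to 2 in CD4SP, and 0 in every fit in CD8SP and DN1. They ran from 4 to 62 for TG splenic CD4 over TG CD4SP, 1 to 68 for TG splenic CD8 over TG CD8SP, 75 to 76 for WT DP over WT DN3, 34 to 71 for WT CD4SP over WT DP, 70 to 76 for WT CD8SP over WT DP, 0 to 26 for TG DN3 over TG DN1 and 0 to 53 for the DP minus DN3 difference. DESeq2 called 4 in DN, 3 in CD4SP, 1 in CD8SP, 37 for TG splenic CD8, 9 for TG DN3 over TG DN1 and 17 for the difference. In the direction of those calls, 1521 of 13396 genes passed in DN, 2455 of 13502 in CD4SP and 649 of 13273 in CD8SP. In TG splenic CD8 cells 2864 of 13665 genes rose, and 987 of 12766 were positive for the difference. In TG DN3 over TG DN1, 3692 of 15408 genes rose and 4751 fell. A fit of all 40 libraries called 0 in DN3, DN and CD4SP and for the difference, 63 for TG splenic CD8, 38 for WT CD4SP over WT DP and 1 for TG DN3 over TG DN1. Of its 14845 genes, 1581 rose and 1063 fell in DN3, 1175 and 552 in DN, and 3170 and 2553 in CD4SP. In TG splenic CD8 cells 4229 rose, in WT CD4SP over WT DP 2228 rose, and in TG DN3 over TG DN1 3809 fell. The difference was called positive in 199 and negative in 354. With no filter the count was 0 in CD4SP, 8 for TG splenic CD8 and 1 for the difference. Over all genes 1553 of 16770 rose and 1312 fell in CD4SP, and 1990 of 16594 rose for TG splenic CD8. For the difference 457 of 18050 were called positive. Without splenic replicate 1 and thymic replicate 3, a choice made after seeing the data, 66 were called for TG splenic CD8. There 2891 of 12222 genes rose. With the replicate number as a block the count was 0 in DP, CD4SP and CD8SP, 17 for TG splenic CD4, 3 for TG splenic CD8, 12 for TG DN3 over TG DN1 and 0 for the difference. Over all genes 0 of 11649 rose in DP, 863 of 12073 rose and 499 fell in CD4SP, and 383 of 11697 rose and 415 fell in CD8SP. In TG splenic CD4 cells 1024 of 12578 rose, and in TG splenic CD8 cells 1425 of 12185. In TG DN3 over TG DN1, 3848 of 12936 rose and 4399 fell. For the difference 496 of 12451 were positive and 616 negative. The count of members with this block was 8 in DN3, 1 in DN, 42 for WT CD4SP over WT DP and 76 for the other WT stages. In DN3 2460 of 12037 genes fell, and in DN 844 of 12509 rose. In WT CD4SP over WT DP 2134 of 11923 genes rose, and in WT CD8SP over WT DP 2840 of 11691. In WT DP over WT DN3 3722 of 11953 fell. The labels give same-numbered libraries only a number in common. In no comparison were all 3 correlations of their deviations over 0.1. They were 0.375, 0.303 and 0.0968 for WT CD8SP over WT DP, and 0.436 for replicate 3 of TG and WT CD8SP. Whether such libraries share an origin was not tested. The cause of these shifts was not tested. A term for the suffix N could not be fitted in every comparison. Of 396 alternative values of 30 named results, 298 kept their direction and call, 98 lost the call and 0 changed sign. Each result is 1 member in 1 comparison, and some members recur. They were picked for the smallest p in these same data, so a kept sign is no separate evidence.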
